A study of Mus musculus with 4 samples.

Results

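The genes described here were the receptors for the constant part of IgG (Fcgr1, Fcgr2b, Fcgr3 and Fcgr4), their shared signalling chain Fcer1g, the lectin receptor Clec7a and the integrin chains Itgam and Itgax. They were taken by symbol from the gene rows of every matrix, whatever their values, and 7 of the 8 were found among 32285 gene rows. Clec7a was not analysed here. CD45+ cells, that is leukocytes including microglia, had been sorted alive from the injured hemisphere, out of thalamus or hippocampus (HPC), and profiled by droplet single-cell RNA sequencing. All samples came from C57B6/J mice with cortical brain injury, and no uninjured group was analysed here. Time after injury, age and sex were not in the labels, while the study worked in the chronic phase, mostly with female mice. Each region gave 4 tagged sets of cells, called thalamus sets 1 to 4 and HPC sets 1 to 4, each taken as 1 mouse because the methods name 4 mice pooled per region, which the labels do not state. If the sets are not separate mice, the p-values measure the spread between sets only. The regions were also separate 10x libraries, and the effects of region and library cannot be told apart.

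Fc gamma receptors bind IgG held in immune complexes or on opsonised targets. Fcgr1 (high affinity), Fcgr3 and Fcgr4 are activating, and each needs the Fcer1g chain, whose tyrosine motif recruits the kinase Syk and starts engulfment and cytokine release. Fcgr2b is the inhibitory receptor and recruits the phosphatase encoded by Inpp5d. Itgam (CD11b) and Itgax (CD11c) pair with Itgb2 to form the complement receptors CR3 and CR4, and Clec7a (dectin-1) recognises beta-glucans and signals through Syk as well. Microglia hold Itgam at rest, while Itgax is a common mark of disease-associated microglia (DAM) and of dendritic cells.

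After the filter of the study (200 to 7500 genes per cell and at most 2% mitochondrial UMIs), 24939 of 29190 barcodes were kept, 11537 from the thalamus and 13402 from the HPC, with 119958441 UMIs in all. Sets held 2072 to 5389 cells with median depths of 4261.5 to 4657 UMIs per cell. HPC set 1 stood apart, since the filter kept 80.5% of its cells against 92.9% to 95.6% in the other HPC sets and 80.4% to 87.9% in the thalamus. No barcode occurred in more than 1 set of a region (0), and 49 occurred in both regions. Cells were clustered with the members left out of the features, and named from marker genes. Microglia-like cells numbered 18710 (8253 thalamus, 10457 HPC), and Cx3cr1, the fractalkine receptor gene that marks microglia, had a UMI in 97.8% of them. Their states were homeostatic-like (9072 cells), DAM-like (2591), interferon-like (665), MHC class II-like (411), cycling (157) and clusters led by Aoah, Rxrg and Cxcl13 (2817), by Hist1h2ac, Vcam1 and Ifi30 (2262) and by Cd244a, C4b and Adgb (735). DAM-like cells were further divided by cluster into 1663 Malat1-holding cells and 928 Malat1-poor cells. The latter cluster had a median of 2184 UMIs per cell. Its median of the nuclear RNA Malat1 was 5.33 UMIs per 10,000, under the limit of 40, which single cells could exceed. Fits without Malat1-poor cells left out every cell under that limit. Levels below are UMIs of a gene per 10,000 gene UMIs of a set's cells, and are compared between groups of cells and not between genes.

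In GRCm38, 4 of the Fc genes lie close together on chromosome 1, with Fcgr2b at chr1:170958617-170976547, Fcgr4 at chr1:171018920-171029761, Fcgr3 at chr1:171051174-171064935 and Fcer1g at chr1:171229572-171234365. Fcgr1 lies at chr3:96282909-96293969. The integrin genes are neighbours at chr7:128062640-128118491 (Itgam) and chr7:128129547-128150657 (Itgax). Gm38204 lies antisense to Fcgr2b and Gm49368 on the same strand over Itgam, so UMIs of these pairs may be split or shared. The promoters (250 bases before to 50 after the start site, RefSeq, GRCm38.p6, 5′ to 3′) of 3 members are shown because the results below turn on them: Fcgr1 and Fcgr4 for interferon-like cells, and Itgax for the regions and DAM-like cells. Capitals mark matches to GAGGAA (a core bound by PU.1 and other ETS factors, printed as TTCCTC on the other strand), TTCNNNGAA (the gamma-activated site) and GAAA, any 2 bases and GAAA (an interferon-stimulated response element core). The Fcgr1 window is chr3:96293920-96294219 on the minus strand, that of Fcgr4 chr1:171018676-171018975 and that of Itgax chr7:128129300-128129599, both on the plus strand.
Fcgr1 promoter: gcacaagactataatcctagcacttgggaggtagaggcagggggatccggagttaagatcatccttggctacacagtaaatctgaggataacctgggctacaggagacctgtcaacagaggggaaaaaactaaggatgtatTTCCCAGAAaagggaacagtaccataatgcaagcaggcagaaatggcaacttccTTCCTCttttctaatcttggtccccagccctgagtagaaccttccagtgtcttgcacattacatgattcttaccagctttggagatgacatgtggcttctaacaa
Fcgr4 promoter: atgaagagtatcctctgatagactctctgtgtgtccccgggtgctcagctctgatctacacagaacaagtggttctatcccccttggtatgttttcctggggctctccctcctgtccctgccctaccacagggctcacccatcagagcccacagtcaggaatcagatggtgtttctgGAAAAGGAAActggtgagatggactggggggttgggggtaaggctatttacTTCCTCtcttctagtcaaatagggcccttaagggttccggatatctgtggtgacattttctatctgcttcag
Itgax promoter: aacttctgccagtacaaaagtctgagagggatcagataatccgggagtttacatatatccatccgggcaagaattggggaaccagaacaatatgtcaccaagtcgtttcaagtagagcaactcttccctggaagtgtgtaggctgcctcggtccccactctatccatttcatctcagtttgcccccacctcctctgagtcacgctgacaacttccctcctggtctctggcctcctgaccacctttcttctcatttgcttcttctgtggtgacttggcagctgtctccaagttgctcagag
On both strands, TTCNNNGAA was matched in Fcgr1 by TTCCCAGAA at position -109 from the start site and the GAAA-gap-GAAA motif in Fcgr4 by GAAAAGGAAA at position -73. GAGGAA was matched at -55 in Fcgr1 and -22 in Fcgr4, while the Itgax window held none of the motifs. Among 27025 promoters of the same length, 28.3% held GAGGAA, 8.47% TTCNNNGAA and 3.49% the GAAA-gap-GAAA motif. The windows of Fcgr3, Itgam and Clec7a held GAGGAA too, and those of Fcer1g and Fcgr2b held no match. A match is a description of letters and not of binding.

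Across all microglia-like cells, Itgax was the single member that passed the test between regions when the sets were not paired. It was higher in the thalamus by 1.98 ± 0.27 on the log2 scale (± SE, edgeR quasi-likelihood test over all genes, n = 4 sets per region, adjusted p = 0.00276). Thalamus sets 1 to 4 held 0.595, 0.379, 0.438 and 0.600 Itgax UMIs per 10,000, and HPC sets 1 to 4 held 0.199, 0.106, 0.0861 and 0.134. The lowest thalamus set lay above the highest HPC set. Means were 0.503 ± 0.112 in the thalamus and 0.131 ± 0.0492 in the HPC (SD, n = 4), a ratio of 3.83. So 1 of 7 members passed the test and was higher in the thalamus, and 0 were lower, against 8.53% of the 12983 genes tested higher and 4.52% lower. An exact permutation test of the Itgax level (two-sided, 70 assignments of sets) gave p = 0.0286, the smallest it can give. It did not pass after adjustment over the 7 members (adjusted p = 0.2).

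Among the activating receptors in microglia-like cells, Fcgr1, the high-affinity receptor, stood at 3.23, 3.60, 3.08 and 3.30 UMIs per 10,000 in thalamus sets 1 to 4 and 3.26, 3.19, 2.87 and 3.25 in HPC sets 1 to 4. Fcgr3, a low-affinity receptor for complexed IgG, stood at 5.28, 6.98, 6.55 and 6.24 in the thalamus, against 5.94, 7.53, 7.39 and 6.72 in the HPC. Regions overlapped for both, with log2 differences of 0.14 ± 0.07 for Fcgr1 (adjusted p = 0.225) and -0.07 ± 0.08 for Fcgr3 (adjusted p = 0.631). Fcgr4, a receptor for IgG2 subclasses, varied from 0.318 to 0.764 in the thalamus and from 0.259 to 0.694 in the HPC (log2 difference 0.32 ± 0.32, adjusted p = 0.529). Fcer1g, the chain these receptors signal through, held 21.4, 19.1, 18.6 and 19.4 in the thalamus, against 20.7, 17.4, 17.3 and 17.1 in the HPC (log2 difference 0.18 ± 0.11, adjusted p = 0.282). HPC set 1 lay above 3 thalamus sets for Fcer1g, and without it the difference was 0.28 with an adjusted p of 0.0246 (edgeR). With the set number as a block, Fcer1g (0.19, adjusted p = 0.0209) and Fcgr1 (0.14, adjusted p = 0.0381, edgeR) also passed, which made 3 of 7 members, all higher in the thalamus. That paired fit called 2217 of 12983 genes higher and 1695 lower.

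Fcgr2b, the inhibitory receptor, had 2.27, 3.35, 1.96 and 2.26 UMIs per 10,000 in microglia-like cells of thalamus sets 1 to 4 and 2.75, 2.85, 2.21 and 2.76 in those of HPC sets 1 to 4. Thalamus set 2 was above every HPC set and the other thalamus sets were below at least 3 of them (log2 difference -0.04 ± 0.16, adjusted p = 0.893). As a share of all Fc gamma receptor UMIs, Fcgr2b made up 19.4 ± 2.70% in the thalamus and 20.1 ± 1.91% in the HPC (SD, n = 4; exact permutation p = 0.657). In homeostatic-like cells the shares were 16.8 ± 0.744% and 18.6 ± 1.07% (p = 0.0571, exact permutation), and in DAM-like cells 18.2 ± 2.41% and 20.9 ± 2.54% (p = 0.229, exact permutation). None of the 3 groups of cells passed the test, whose smallest p for 4 against 4 sets is 0.0286. Between sets of the same number, the Fcgr2b share was lower in the thalamus in 4 of 4 pairs in homeostatic-like and DAM-like cells and in 3 of 4 in all microglia-like cells, where an exact paired test cannot go below p = 0.125. Itgam, the CD11b chain, had 5.69, 6.78, 5.47 and 5.59 in thalamus sets 1 to 4 and 7.27, 7.27, 5.92 and 6.94 in HPC sets 1 to 4. Thalamus set 2 was the one thalamus set above an HPC set (log2 difference -0.15 ± 0.10, adjusted p = 0.324). Itgam and Fcgr3 were lower in the thalamus in 4 of 4 pairs of microglia-like cells, as were 42.9% of 7030 genes.

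**Figure D1:**
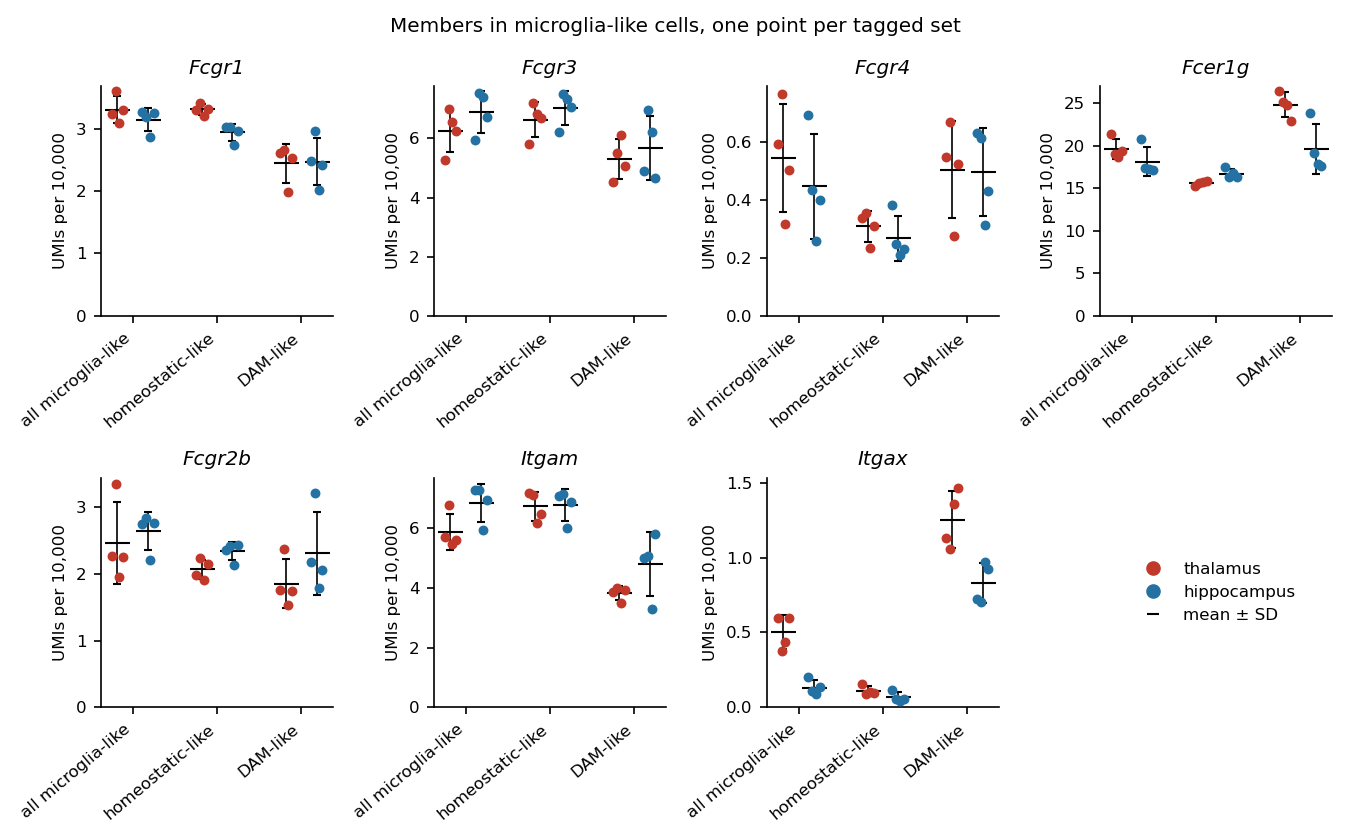
Level of each of the 7 members in UMIs per 10,000 (vertical axis, from 0) in all microglia-like, homeostatic-like and DAM-like cells. Each point is 1 tagged set, thalamus in red and HPC in blue, with the mean and SD of 4 sets; the Itgax points of the regions are apart in all microglia-like and in DAM-like cells, from 0.379 against 0.199 and from 1.06 against 0.969.

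Within homeostatic-like cells, 2 of 7 members passed the test and both were higher in the thalamus, against 5.81% of 11726 genes tested. Fcgr1 had 3.30, 3.42, 3.21 and 3.31 UMIs per 10,000 in thalamus sets 1 to 4 and 3.02, 3.03, 2.74 and 2.97 in HPC sets 1 to 4, so that the regions did not overlap, but by a small log2 difference of 0.18 ± 0.05 (adjusted p = 0.0394). Itgax was near its lowest microglial level here, with 0.157, 0.0858, 0.101 and 0.0979 in the thalamus, against 0.115, 0.0559, 0.0412 and 0.0551 in the HPC. HPC set 1 lay above 3 of the thalamus sets, and the log2 difference was 0.90 ± 0.24 (adjusted p = 0.0326). Both calls depended on single sets: Fcgr1 passed with HPC set 1 left out but with no other set left out (adjusted p up to 0.133), and Itgax with thalamus set 2 or HPC set 1 left out but with none of the other 6 (adjusted p up to 0.118, edgeR). With the set number as a block, Fcgr2b also passed, at -0.16 (adjusted p = 0.0169, against 0.124 without the block, edgeR). For Fcer1g the HPC sets (16.3 to 17.5) lay above the thalamus sets (15.3 to 15.8), and the difference did not pass.

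DAM-like cells, a state known from neurodegeneration and named here from genes such as Spp1, Cst7 and Lpl, had high Itgax, and more of it in the thalamus. Thalamus sets 1 to 4 held 1.13, 1.06, 1.36 and 1.46 Itgax UMIs per 10,000, and HPC sets 1 to 4 held 0.722, 0.704, 0.969 and 0.927. All 4 thalamus sets were above all HPC sets, with means of 1.25 ± 0.190 and 0.831 ± 0.137 (SD, n = 4), a ratio of 1.51 and a log2 difference of 0.77 ± 0.13 (adjusted p = 0.00163, edgeR). Leaving out any set kept it between 0.69 and 0.84. Fcer1g had 26.4, 25.1, 24.8 and 23.0 in the thalamus, against 23.9, 19.1, 17.8 and 17.5 in the HPC, with thalamus set 4 the one below HPC set 1 (log2 difference 0.47 ± 0.14, adjusted p = 0.0459, edgeR). Thus 2 of 7 members passed, against 6.11% of 9649 genes tested. The other members overlapped between the regions, Fcgr3 at 4.52 to 6.13 in the thalamus and 4.67 to 6.95 in the HPC, Fcgr1 at 1.99 to 2.65 and 2.02 to 2.95.

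Cells that were each under 40 Malat1 UMIs per 10,000 made up 34.4% to 45.8% of the DAM-like cells of thalamus sets and 5.94% to 29.6% of those of HPC sets. Cells of the Malat1-poor cluster held far more Fcer1g than those of the Malat1-holding cluster, a comparison not made over all genes. Against homeostatic-like cells of the same set, Fcer1g of the Malat1-poor cluster was at 3.01 times (median of 5 sets). There 92.8% of genes lay as low or lower, with a median of 0.807 over all genes, so the rise was not particular to Fcer1g. In cells of the group "DAM-like, Malat1-poor", Fcer1g stood at 48.3, 45.9, 51.0 and 47.5 UMIs per 10,000 in thalamus sets 1 to 4 and 46.1 in HPC set 1, the single HPC set with at least 20 such cells. In "DAM-like, Malat1-holding" cells it stood at 19.5, 20.4, 19.96 and 18.5 in the thalamus, against 19.97, 17.3, 17.1 and 17.1 in the HPC. Without the Malat1-poor cells the Fcer1g difference was 0.18 (adjusted p = 0.408), whereas that of Itgax remained, at 0.63 (adjusted p = 0.00605, edgeR). Itgax in Malat1-holding cells was 1.13, 1.10, 1.29 and 1.45 in the thalamus, against 0.801, 0.733, 1.00 and 0.921 in the HPC, without overlap. The Fcer1g call in DAM-like cells was also lost when any set but HPC set 1 was left out, with log2 differences of 0.41 to 0.51 and adjusted p of 0.0697 to 0.158 (edgeR).

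Whether the regional difference itself differed between the states was tested by the interaction of region and state, DAM-like against homeostatic-like, with the set as a block. Fcer1g was the 1 member of 7 that passed (0.60 ± 0.11 on the log2 scale, adjusted p = 0.00123), against 2.56% of 11177 genes tested. Its estimate was above 0 in DAM-like cells and below 0 in homeostatic-like cells, where it did not pass. Without the Malat1-poor cells the interaction was 0.29 with an adjusted p of 0.137 (edgeR). For Itgax it was -0.01 ± 0.26 (adjusted p = 0.997), so its regional differences in the 2 states were not told apart, with a wide error.

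**Figure D2:**
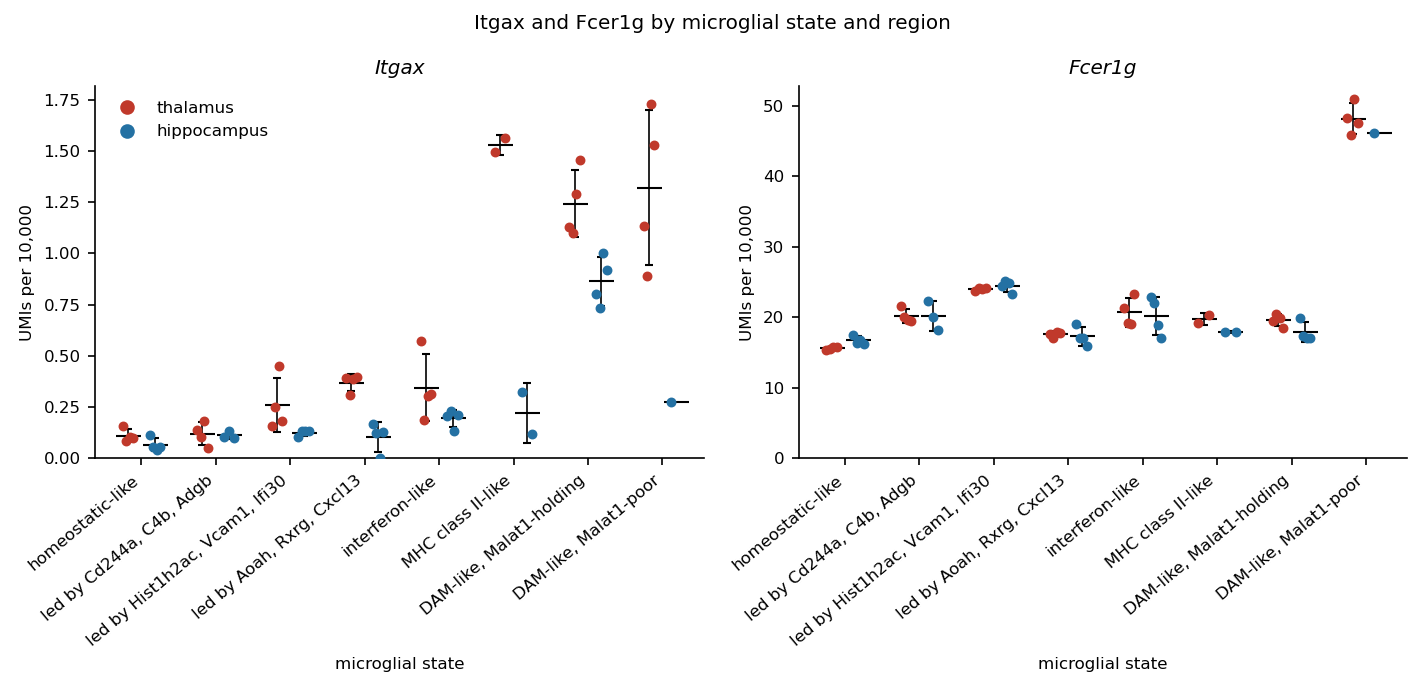
Levels of Itgax (left) and Fcer1g (right) in UMIs per 10,000 by microglial state, 1 point per set with at least 20 cells of the state, thalamus red and HPC blue, with mean and SD. Itgax is high in the Malat1-holding DAM-like cells and, in the thalamus, in the Malat1-poor and MHC class II-like cells. The Fcer1g points of the Malat1-poor cells lie above those of the other states, at 45.9 to 51.0. In these cells 92.8% of the 3663 genes compared had a ratio to homeostatic-like cells as low as that of Fcer1g or lower.

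In the 3 remaining states with at least 20 cells in every set, Itgax was the 1 member called, in the clusters led by Aoah and by Hist1h2ac. In cells led by Aoah, Rxrg, Cxcl13, it had 0.389, 0.308, 0.385 and 0.395 UMIs per 10,000 in thalamus sets 1 to 4 and 0.168, 0.123, 0 and 0.127 in HPC sets 1 to 4, where HPC set 3 held 30 cells (log2 difference 1.33 ± 0.20, adjusted p = 0.000147, edgeR). This made 1 of 7 members called, against 3.38% of genes, and every HPC set lay below every thalamus set. In cells led by Hist1h2ac, Vcam1, Ifi30, it had 0.159, 0.251, 0.448 and 0.179 in the thalamus, against 0.102, 0.133, 0.132 and 0.132 in the HPC (log2 difference 1.05 ± 0.29, adjusted p = 0.0429, edgeR), 1 of 7 members against 1.94% of genes. The regions did not overlap there, but the call was lost with the set number as a block (0.87, adjusted p = 0.0724) and without thalamus set 3 (0.73, adjusted p = 0.324), and without thalamus set 2 or HPC set 1, 2 or 4. HPC set 1 held 1477 of the 1827 HPC cells led by Aoah and 924 of the 1519 led by Hist1h2ac. Of its microglia-like cells, 11.3% were homeostatic-like, against 64.1% to 85.6% in the other HPC sets.

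Interferon-like cells called no member (0 of 7, against 2.08% of genes by edgeR's quasi-likelihood test). In them 1 member, Itgax, had an unadjusted p under 0.05 (0.00997, adjusted 0.179), and DESeq2 also called 0, while cells taken by the marker gate gave 1, Itgax (1.40, adjusted p = 0.0203, edgeR). Itgax in interferon-like cells was 0.573, 0.186, 0.303 and 0.314 in the thalamus, against 0.207, 0.230, 0.133 and 0.209 in the HPC, where thalamus set 2 lay below 3 HPC sets. Cells led by Cd244a, C4b, Adgb and MHC class II-like cells had sets under 20 cells and were not tested. In those led by Cd244a, C4b, Adgb, Itgax overlapped between the regions (0.0514 to 0.184 in the thalamus and 0.0963 to 0.134 in the HPC), whereas Itgam lay at 6.69 to 9.504 in the thalamus, below the 10.3 to 12.1 of HPC sets 1, 2 and 4. In MHC class II-like cells the sets with at least 20 cells had 1.497 and 1.57 Itgax UMIs per 10,000 in thalamus sets 2 and 4 and 0.323 and 0.118 in HPC sets 2 and 4. Other members lay apart in these 4 sets of MHC class II-like cells as well, with Itgam at 4.37 to 5.63 in the thalamus against 7.83 to 7.99 in the HPC, and Fcgr2b lower and Fcer1g higher in both thalamus sets. Summed markers of dendritic cells, of which Itgax is a common mark too, gave 1.82 to 2.35 UMIs per 10,000 over 9 genes in these cells of the thalamus sets and 2.58 to 4.02 in those of the HPC sets, with Xcr1, Cd209a and Ccr7 at 0. In DAM-like cells they gave 1.69 to 1.94 and 2.04 to 2.39, with Xcr1 at 0, and in dendritic-like cells 13.9 to 20.1. The part of dendritic cells in the Itgax values was not tested.

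**Figure D3:**
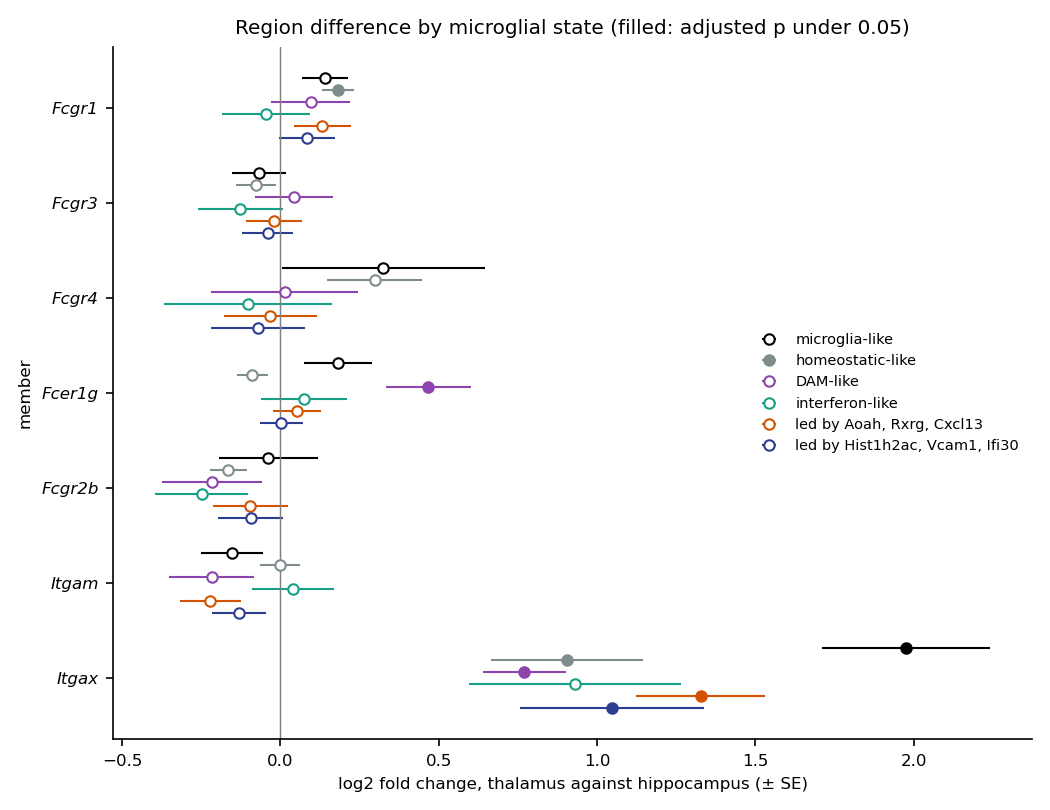
Log2 fold change of thalamus against HPC for each member (rows) in all microglia-like cells and 5 microglial states (colours), with bars of 1 SE; filled points had an adjusted p under 0.05. Itgax lies to the right of 0 in each of the 5 states, from 0.77 in DAM-like to 1.33 in cells led by Aoah, Rxrg, Cxcl13.

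The regions held different shares of DAM-like cells, given here without a test, with Malat1-holding ones at 14.2 ± 3.61% of microglia-like cells in the thalamus and 4.27 ± 1.55% in the HPC, and Malat1-poor ones at 9.30 ± 4.57% and 1.04 ± 1.30% (SD, n = 4). When every set was given the same shares of 7 states (homeostatic-like 51.0%, DAM-like 14.6%), Itgax was 0.391, 0.314, 0.398 and 0.387 UMIs per 10,000 in thalamus sets 1 to 4 and 0.219, 0.184, 0.198 and 0.209 in HPC sets 1 to 4. The regions still did not overlap, and the ratio of the means was 1.84 in place of 3.83 (two-sided exact permutation p = 0.0286, adjusted p = 0.2 over 7 tests). For the other members the exact permutation p lay between 0.114 and 0.743. The same held for the share of cells with an Itgax UMI after thinning to 3059 UMIs per cell (16841 of 18710 cells). It was 12.0%, 7.54%, 7.84% and 9.96% in the thalamus, against 4.68%, 2.67%, 1.91% and 3.38% in the HPC (exact permutation p = 0.0286, adjusted p = 0.2 over 7 tests), against 14.6% and 5.04% on average before thinning. Conventional T-like cells, which should lack Itgax for the most part, showed 0.840% and 0.38% after thinning to the same depth. Fcer1g was detected in 98.5% and 98.8% of thinned microglia-like cells of the thalamus and HPC, against 24.9% and 14.9% of conventional T-like cells, and Fcgr4 in 13.7% and 11.4%, against 1.12% and 1.08%.

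Each member had its own order of microglial states, given here as the ratio to homeostatic-like cells of the same set and, since states were made from expression, with no test. Itgax was 12.9 times the homeostatic-like level in Malat1-holding DAM-like cells (median of sets, range 6.95 to 24.3, higher in 8 of 8 sets) and 10.9 times in MHC class II-like cells (range 2.15 to 17.4, 4 of 4 sets). The typical gene was lower in these comparisons, with medians over all genes of 0.807 to 0.949, and 2.19% of genes were at least 2 times higher in Malat1-holding DAM-like cells. Itgam went the other way, at 0.630 of the homeostatic-like level in Malat1-holding and 0.349 in Malat1-poor cells, lower in 8 of 8 and 5 of 5 sets, where 7.43% and 23.2% of genes lay as low or lower. Of the 8 groups of microglia-like cells compared, the DAM-like ones were at the upper end for the CD11c chain and at the lower end for the CD11b chain. Cycling cells, with 2 sets of at least 20 cells, were not among the 8. They had Itgax at 6.57 times and Itgam at 0.489 of the homeostatic-like level.

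Among the Fc gamma receptors, interferon-like cells had high levels of the activating receptors Fcgr1 and Fcgr4, whose promoters are printed above. Fcgr4 was above the homeostatic-like level in every other state as well. It was at 3.02 times in MHC class II-like, 2.76 in Malat1-poor DAM-like, 2.41 in Hist1h2ac-led, 2.21 in cycling and 1.85 in Aoah-led cells. In interferon-like cells Fcgr1 was at 2.08 times the homeostatic-like level (range 1.70 to 2.84, 8 of 8 sets) and Fcgr4 at 4.11 times (range 2.396 to 5.69, 8 of 8 sets). Of the 6683 genes compared there, 1.66% were at least 2 times higher. Fcgr3 was at 0.8287 (lower in 8 of 8 sets), nearer to the median of 0.932 over the genes compared, of which 23.2% lay as low or lower. In interferon-like cells Fcgr1 had 5.62, 8.12, 6.17 and 6.16 UMIs per 10,000 in thalamus sets 1 to 4 and 6.74, 7.49, 7.78 and 5.49 in HPC sets 1 to 4. DAM-like cells with Malat1 had less Fcgr1 (0.756) and Fcgr3 (0.711) than homeostatic-like cells, in 8 of 8 sets each, where 19.1% and 13.8% of genes lay as low or lower, with Fcgr4 at 1.45. Cells led by Cd244a, C4b, Adgb had the highest mean level of the inhibitory receptor, with Fcgr2b at 2.22 times the homeostatic-like level (range 1.87 to 4.23, 7 of 7 sets) and Fcgr4 at 5.03 times. In these cells, led by Cd244a, C4b, Adgb, Fcgr2b had 4.05, 7.02, 8.09 and 4.01 in thalamus sets 1 to 4 and 4.76, 6.51 and 5.39 in HPC sets 1, 2 and 4, HPC set 3 having 18 such cells.

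**Figure D4:**
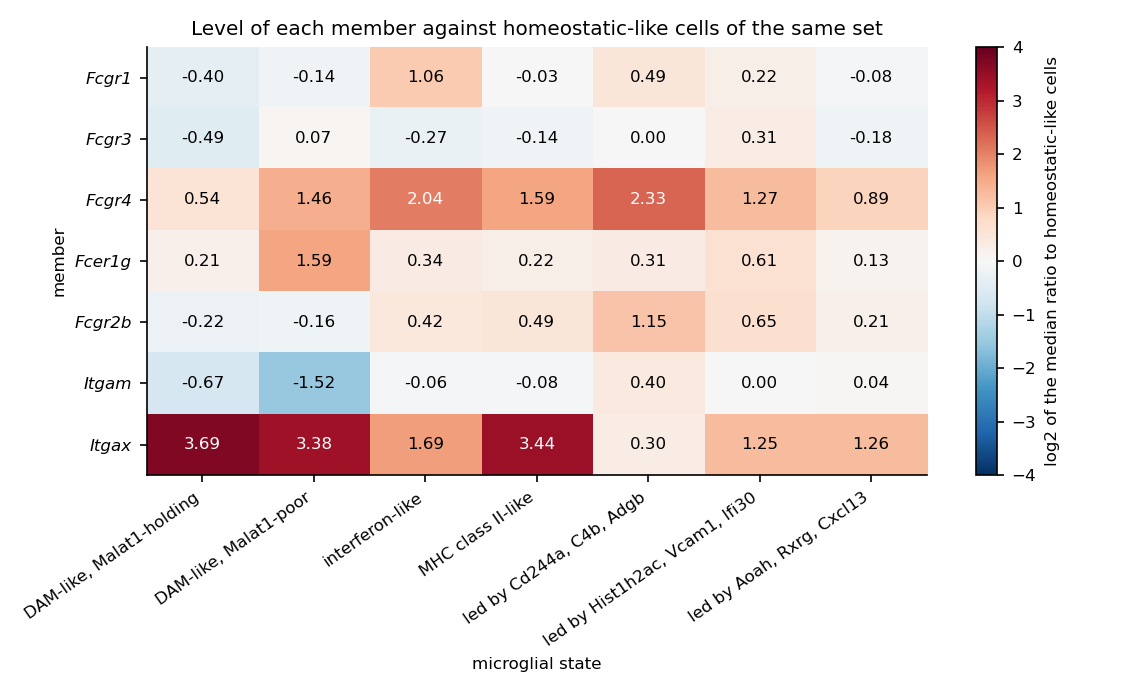
Log2 of the median ratio over sets of each member's level (rows) in each microglial state (columns) to the homeostatic-like cells of the same set, red for higher and blue for lower. Itgax reaches 3.69 in Malat1-holding DAM-like cells, Fcgr4 2.33 in the cells led by Cd244a, C4b, Adgb and Fcgr1 1.06 in interferon-like cells, while Itgam is lowest in the Malat1-poor cells (-1.52).

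The states also differed in the composition of their pooled Fc gamma receptor UMIs, given as shares between groups of cells. Fcgr3 gave 50.5% of them in Malat1-holding DAM-like cells, 38.3% in the cells led by Cd244a and 34.4% in interferon-like cells. Fcgr1 gave 24.3% in homeostatic-like and 39.9% in interferon-like cells. The inhibitory Fcgr2b gave 17.7% in homeostatic-like, 30.5% in Cd244a-led, 28.4% in monocyte- or macrophage-like, 34.9% in dendritic-like and 38.2% in B-like cells, the last of 246 UMIs. Neutrophil-like cells had 69.1% from Fcgr3, 13.4% from Fcgr4 and 7.28% from Fcgr1.

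Outside the microglia, Fcer1g was high in monocyte- or macrophage-like, neutrophil-like and NK-gated cells. Monocyte- or macrophage-like cells (549) had 27.2 ± 3.18 Fcer1g UMIs per 10,000 over 7 sets and neutrophil-like cells (1010) 28.6 ± 3.38 over 6, both above the homeostatic-like mean of 16.2. NK-gated cells, the NK- or CD8 T-like cells with an NK marker and no Cd3 UMI, had 26.4 Fcer1g and 1.80 Itgax UMIs per 10,000 in thalamus set 1 and 26.9 and 1.08 in HPC set 1, the 2 sets with at least 20 such cells. Fcgr1 was 2.64 ± 0.910 in monocyte- or macrophage-like and 0.301 in neutrophil-like cells, near the 0.209 of conventional T-like cells. Dendritic-like cells (344) were high in Itgax (1.16) and low in Fcgr3 (0.605) and Fcgr1 (0.798). Since Itgax differed between the regions, its order was taken within each. In the thalamus, MHC class II-like (1.53, n = 2 sets), Malat1-poor (1.32 ± 0.379, n = 4), Malat1-holding (1.24 ± 0.164, n = 4) and dendritic-like cells (1.23 ± 0.354, n = 3) followed each other with overlapping ranges, above neutrophil-like cells (0.685 ± 0.446, n = 3). In the HPC the order was dendritic-like (1.06, n = 2), Malat1-holding (0.864 ± 0.121, n = 4), neutrophil-like (0.705 ± 0.336, n = 3), Malat1-poor (0.274, n = 1) and MHC class II-like cells (0.22, n = 2). For Fcgr1 the first steps were wider than the spread: interferon-like cells (6.70 ± 1.00), cells led by Cd244a (4.42), cells led by Hist1h2ac (3.66) and homeostatic-like cells (3.12).

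No member passed the test between regions in these classes. In monocyte- or macrophage-like cells 0 of 7 members were called, against 0.0154% of genes (edgeR, 4 and 3 sets). The 1 with an unadjusted p under 0.05 was Fcgr1 (0.0151, adjusted 0.999), at 4.45, 2.94, 2.31 and 2.90 UMIs per 10,000 in thalamus sets 1 to 4 and 2.10, 2.05 and 1.75 in HPC sets 1 to 3 of the monocyte- or macrophage-like cells, without overlap. In neutrophil-like cells 0 of 5 members tested were called against 0.0276% of genes, and in T-like cells 0 of 5 against 0.0334%, with 0 at an unadjusted p under 0.05 in both (edgeR). DESeq2 called 0 in each of these classes as well.

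**Figure D5:**
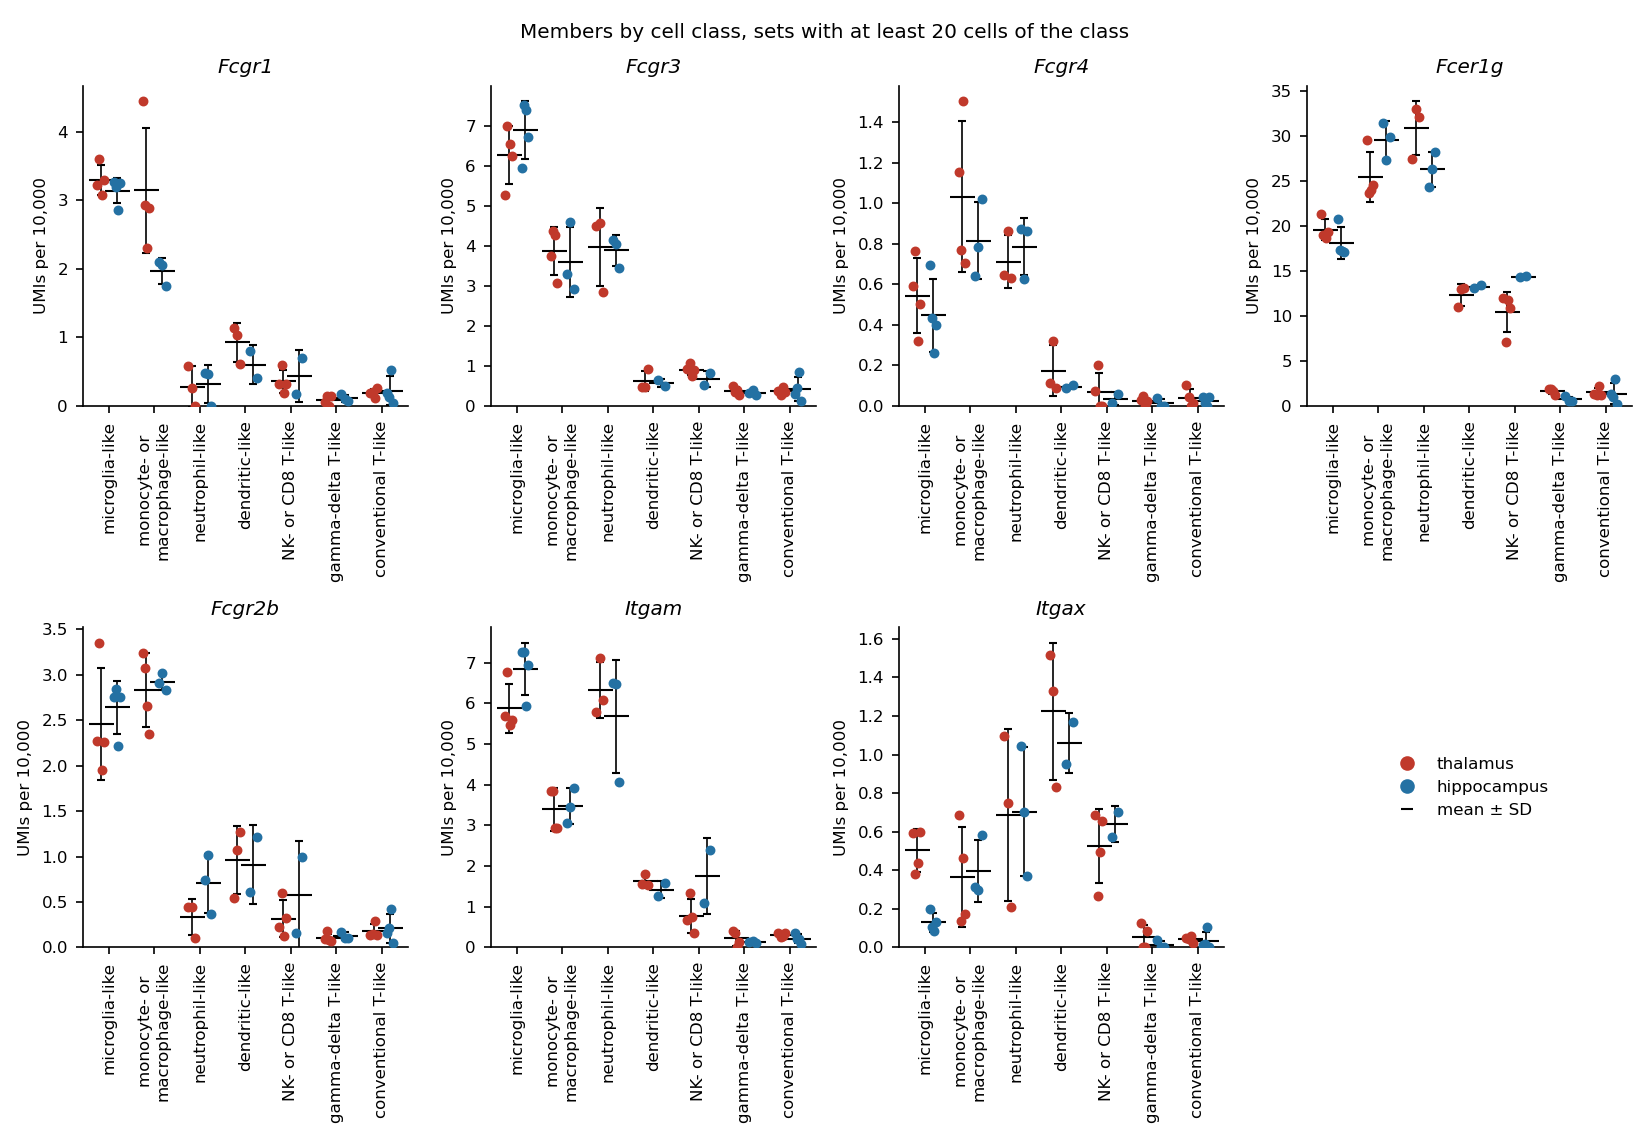
Level of each member in UMIs per 10,000 (vertical axis, from 0) by cell class, 1 point per set with at least 20 cells of the class, thalamus red and HPC blue, with mean and SD. Fcer1g is highest in monocyte- or macrophage-like and neutrophil-like cells, Fcgr1 and Fcgr2b are low in neutrophil-like cells, and of the classes plotted Itgax is highest in dendritic-like cells.

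Cd9 is the surface gene by which the study told a microglial state apart, and it was used to divide microglia-like cells without clustering. After thinning to 3059 UMIs, 10597 of 16841 cells had at least 3 Cd9 UMIs and 1203 had 0. The upper group thus held most of the cells, unlike the study's gate on CD9 and Tmem119 protein. Shallower cells were left out, among them most Malat1-poor DAM-like cells, whose median was 2184 UMIs. The same count of sets over all genes is not given here. Itgax was 0.394 ± 0.241 UMIs per 10,000 in the former and 0.0925 ± 0.0383 in the latter (SD, n = 8 sets), higher in 8 of 8 sets, with ratios of 4.05 to 8.99 in the thalamus and 1.67 to 3.97 in the HPC. Fcer1g was higher in 8 of 8 sets as well (ratio 1.17). Fcgr2b was lower in 8 of 8 sets (0.869), and Itgam in 7 of 8 (0.830), while Fcgr1 (0.958), Fcgr3 (1.04) and Fcgr4 (0.836) were higher in 3, 6 and 3 of 8 sets.

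Of 21 ITAM and kinase genes, which act downstream of these receptors, 2 were higher in the thalamus in microglia-like cells and 0 lower by edgeR, a share near the 8.53% of all genes higher. The list median was -0.11 on the log2 scale against -0.01 over all genes, 12 had an unadjusted p under 0.05 and DESeq2 called 6. These were the exchange factor Vav3 (2.08 ± 0.36, adjusted p = 0.00708) and the adaptor Lat2 (0.51 ± 0.05, adjusted p = 0.001, edgeR). In DAM-like cells 1 of 20 was higher, Tyrobp, an ITAM adaptor like Fcer1g, at 34.2 against 23.7 UMIs per 10,000 (0.66 ± 0.13, adjusted p = 0.00471, edgeR), and among those lower was the protein kinase C gene Prkcd (-0.42), which was called in 2 of 8 fits with a set left out and not without Malat1-poor cells (adjusted p = 0.0509, edgeR). Over this list 10 of 20 had an unadjusted p under 0.05, against 1965 of 9649 genes tested, of which 6.11% passed after adjustment (edgeR). Tyrobp in DAM-like cells was 36.3, 31.6, 37.0 and 31.9 in thalamus sets 1 to 4 and 26.8, 22.0, 24.6 and 21.5 in HPC sets 1 to 4, without overlap. Without the Malat1-poor cells the Tyrobp difference was 0.29 (adjusted p = 0.139, edgeR). Its interaction of region and state passed with them (0.84, adjusted p = 6.23e-06) and without them (0.45, adjusted p = 0.00493, edgeR). Inhibitory signalling genes, among them Inpp5d, had 0 of 10 called in microglia-like cells by edgeR (5 at an unadjusted p under 0.05, 1 by DESeq2, median -0.13) and 0 of 8 in DAM-like cells (1 unadjusted, 0 by DESeq2). Integrin partners and activators, Itgb2 among them, had 0 of 8 called in each by edgeR (1 unadjusted in each, 0 by DESeq2, median 0.01 in microglia-like cells). Over all genes 8.53% were higher and 4.52% lower in microglia-like cells, and 6.11% were called in DAM-like cells.

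Of the other receptors for immunoglobulin or their relatives, 6 of 12 were tested in microglia-like cells and 1 passed, Cd300a, an inhibitory receptor, which was lower in the thalamus (-0.47 ± 0.07, adjusted p = 0.00334, edgeR). Over all genes 4.52% were lower and 8.53% higher. In DAM-like cells 4 were tested, with 1 lower and 1 higher, against 6.11% of all genes in either direction. Cd300a was lower there too (-0.64). Fcrls, a microglial Fc receptor-like gene, was higher in the thalamus, with means of 16.8 and 8.87 UMIs per 10,000 (1.06 ± 0.13, adjusted p = 7.84e-05, edgeR). Without the Malat1-poor cells Fcrls differed by 0.90 (adjusted p = 4e-05, edgeR). Of 15 C-type lectins related to Clec7a, 10 were tested in microglia-like cells and 2 were higher, Olr1 (1.22) and Clec5a (0.36), and 2 lower, Clec4a3 (-0.55) and Clec4a2 (-0.48), against 8.53% and 4.52% of all genes. With a set left out, Olr1 was called in 2 of 8 fits, Clec4a2 in 4, Clec4a3 in 5 and Clec5a in 6, and without Malat1-poor cells Olr1 was not (adjusted p = 0.0501, edgeR). In DAM-like cells 1 of 5 was higher, Clec5a (0.56), and 3 lower, Clec4a2 (-1.12), Clec4a3 (-1.01) and Clec2d (-0.88), against 6.11% of all genes in either direction. Clec5a in DAM-like cells was called in 3 of 8 fits with a set left out and not without Malat1-poor cells (adjusted p = 0.0527, edgeR).

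RNA of most of the immunoglobulin chains tested was lower in the thalamus libraries. Some of these chains belong to IgG, which Fc gamma receptors bind, and some to other classes. The levels were low, and they are of RNA and not of IgG protein. By staining, the study saw IgG outside vessels accumulate in the thalamus, with little or none in the HPC. Of 7 tested in microglia-like cells 5 were lower and 1 higher (list median -2.04), against 4.52% and 8.53% of all genes, with Igkc the most abundant with means of 0.0889 UMIs per 10,000 in the thalamus and 0.498 in the HPC (-2.42, adjusted p = 2.26e-07, edgeR). Jchain, the joining chain of IgA and IgM, was lower by the same test (-1.29), and Iglc1 was the 1 that was higher (0.89), a call kept in 3 of 8 fits with a set left out. Igkc UMIs were present in other cells that are not B-like, with 0.214 and 0.447 in conventional T-like and 0.171 and 0.905 in neutrophil-like cells, against 1821 in B-like cells of HPC set 1. B-like cells numbered 22 in the thalamus and 91 in the HPC. The part of free B-cell RNA in the microglial values was not tested.

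For each member, the genes whose levels followed it most closely were taken over 58 sums of a set and a microglial state, among 6901 genes, by Pearson's r of log2 CPM. These sums share libraries, depth and states, so r is a description only. Itgax went with Lpl (0.890), Ctsb (0.849) and Igf1 (0.828), a lipase, a lysosomal protease and a growth factor. Fcgr1 went with the interferon-inducible genes Ifi204 (0.835) and Ifi209 (0.805) and with Phf11d (0.806). Fcgr4 went with Fgl2 (0.750), Ms4a6c (0.744) and Ccl12 (0.734), and Fcgr2b with the complement gene C4b (0.803), Spint1 (0.792) and Ntpcr (0.789). Fcgr3 went with Selenop (0.808), Trf (0.768) and Tnfaip8l2 (0.733). Fcer1g went with ribosomal protein genes (among them Rpl29, 0.950, and Rpl11, 0.945), and Itgam with Ptpn1 (0.914), Rps6ka1 (0.903) and Atp8a1 (0.895). Between the members, Itgax and Itgam had r = -0.670, Fcer1g and Itgam -0.675 and Fcgr2b and Itgam 0.701.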

How the data were processed

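The matrices deposited by the authors held counts: unnormalized UMI counts for each gene in each cell. Cell Ranger 7.1.0 stands in the file headers, an earlier release in the study's methods. The build was mm10 (GRCm38), and whether intronic reads were counted was not given in the sources used here. Suspensions were treated with anti-CD16/32, which binds the proteins of Fcgr3 and Fcgr2b, stained for CD11b and CD45 and sorted as live CD45+ cells. The 12 multiplexing oligo rows (11.2% to 16.7% of the UMIs of a set) were left out. Members, lists and tests were chosen with earlier results of these data known.

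Cells were integrated over the regions and clustered in Seurat 5.3.0 (R 4.3.3, 2000 features without the members and, for microglia, without the state markers, 30 dimensions, 20 neighbours, resolution 0.5), giving 19 clusters and, among microglia-like cells, 10, which were named from markers. A doublet caller (Scrublet in scanpy 1.11.5) marked 0.028% to 1.45% of cells per set and had not worked, so no doublets were removed, and dropping the top 5% of scores was an alternative. UMIs were summed per set (at least 20 cells) and tested with edgeR 4.0.16 (quasi-likelihood, TMM, filterByExpr, Benjamini-Hochberg over all genes, threshold 0.05). Levels and shares were tested by two-sided exact permutation over 70 assignments (scipy 1.17.1), with Benjamini-Hochberg adjustment within each family of tests. Their p-values are unadjusted unless named as adjusted. The scripts were tested on simulated data. Alternatives were RLE factors, DESeq2 1.42.0, no filter, each set left out, the set number as a block, no top doublet scores, a marker gate and no Malat1-poor cells. Deviations of same-numbered sets from their region means correlated at 0.557, 0.144, 0.485 and 0.182 over 12983 genes, and every thalamus set correlated best with the HPC set of its number, so the numbers were taken to pair the sets. The main edgeR fits between regions and the exact permutation tests left this pairing out. Named genes were the members, up to 6 called genes of each list and the 3 genes most like each member, and results for some of them are not reported here. Sets held 9789875 to 26636526 UMIs. The SDs given were taken over sets, and the SEs came from the edgeR fits over sets.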

Additional observations from a re-analysis of the deposited data

Results flagged for a closer look

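Among 48 groups of 4 sets checked for a set far from the others by Dixon's test (chance flags about 1 in 20), 3 were marked, all in microglia-like cells. HPC set 3 had 2.21 Fcgr2b UMIs per 10,000 against 2.75 to 2.85 in the other HPC sets. HPC set 1 had 20.7 Fcer1g UMIs per 10,000 against 17.1 to 17.4. Thalamus set 2 had 6.78 Itgam UMIs per 10,000 against 5.47 to 5.69.

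Among the members and listed genes reported here, the regional difference of 6 itself differed between DAM-like and homeostatic-like cells by the interaction test (edgeR). That test called 2.56% of 11177 genes. It covered 7 members and 20, 10, 8, 5, 4 and 10 genes of the 6 lists. The interaction, on the log2 scale, was 0.60 for Fcer1g, 0.84 for Tyrobp and 1.13 for Fcrls, and -0.58 for Clec4a3, -0.91 for Clec4a2 and -0.76 for Clec2d. Without Malat1-poor cells Fcer1g, Clec4a3 and Clec2d no longer passed (adjusted p = 0.137, 0.0513 and 0.0718), and Tyrobp was 0.45, Fcrls 0.96 and Clec4a2 -1.02.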

How the results depend on the processing

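Of 878 recomputed results, 759 were counted as kept, 36 turned and 83 changed otherwise. For a value, kept meant the same direction and side of the threshold. A number of members called was counted as kept when close to the first, such as 3 in place of 2 in homeostatic-like cells. Of these results, 466 had a set left out, and 391 of the 466 were kept. The number of members called moved in these cases. With the set number as a block it was 3 in microglia-like cells and 0 in cells led by Hist1h2ac, and the block changed no other call of the 7 members except that of Fcgr2b in homeostatic-like cells (-0.16); over all genes it called 2217 higher and 1695 lower in microglia-like cells, against 1107 and 587. DESeq2 called 1 in homeostatic-like cells and 0 in both clusters named by leading genes, where it gave Itgax no adjusted p. Homeostatic-like cells had 1 without the top doublet scores and 0 with the marker gate, and without the low-count filter 1 higher and 1 lower. DAM-like cells had 1 without Malat1-poor cells and 1 with the gate, interferon-like cells 1 with the gate, and the interaction 0 without Malat1-poor cells. The gate could not be applied to clusters named by leading genes, neutrophil-like or monocyte- or macrophage-like cells. Leaving out a set gave 1 to 2 members in microglia-like, 0 to 3 in homeostatic-like, 1 to 2 in DAM-like and 0 to 1 in Hist1h2ac-led cells.

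Directions turned for values near 0. Without Malat1-poor cells, Itgam in homeostatic-like cells was 0.0005 and, in DAM-like cells, Fcgr4 was -0.20, Fcgr3 -0.12 and Fcgr1 -0.0094, and the Fcgr3 interaction was -0.029. With the gate, Fcgr4 was -0.13 and Fcgr1 -0.12 in DAM-like cells. Without thinning, the share of cells with Fcgr1 differed by -0.33 points. Leaving out a set gave -0.21 to 0.063 for Fcgr2b in microglia-like cells, -0.059 to 0.038 for Itgam in homeostatic-like cells, and -0.089 to 0.25 for Fcgr4 and -0.039 to 0.15 for Fcgr3 in DAM-like cells. It gave interactions of -0.11 to 0.16 for Fcgr2b, -0.18 to 0.066 for Fcgr4, -0.11 to 0.026 for Fcgr1 and -0.26 to 0.19 for Itgax, differences at equal state shares of -0.019 to 0.057 for Fcgr4 and -0.059 to 0.76 for Fcer1g, and -1.88 to 0.25 points for the Fcgr2b share in microglia-like cells. No exact permutation test passed the threshold after adjustment, and with a set left out none can. Where the cells or sets left out do not show it, the cause was not tested.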
